A study of Mus musculus with 24 samples.

Results

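The 88 genes described here encode the protein components of the cytosolic ribosome and their close copies, measured in the mouse hippocampus. They were chosen by symbol (Rpl, Rps, Rplp or Rpsa names, without the pseudogene ending and without the Rps6k kinases) and by a mean CPM of at least 5 over 24 libraries, where CPM is a gene's count as a share of its library, scaled to 1000000 counts. Of 51912 genes in the deposited count table, 92 carried such a symbol and 88 reached the limit. Rps27rt, at 5.44 CPM, and Rps27l, at 7.40 CPM, lay just above it, and Rps3a3 (3.68 CPM), Rpl3l (0.228 CPM), Rpl39l (0.054 CPM) and Rpl10l (listed at 0) lay below. The members comprised 46 genes of the large subunit, 31 of the small subunit and 10 paralogues or copies, of which 5 are annotated as pseudogenes. The last is Rps19bp1, which encodes a protein that binds a ribosomal protein and is not itself part of the ribosome. Fau, which encodes a ubiquitin-like protein fused to a ribosomal protein, and Rack1, a scaffold on the small subunit, have other symbols and are given as non-members.

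Both hippocampal regions, dorsal and ventral, were taken from 12 C57BL/6J mice, whose sires had received chronic nicotine or saline. The offspring were male or female, so the 24 libraries formed 8 groups of 3: nicotine-sired and saline-sired males and females, each in both regions. The labels give no age, dose or treatment of the offspring themselves, and each animal, named here by its group and the letter A, B or C, gave 1 dorsal and 1 ventral library. Each group of sire treatment and sex has its own number in the library titles, and nothing states that its 3 animals came from separate sires or litters. The p-values therefore measure only the spread between these animals, and what the number marks cannot be told apart from the groups.

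A cytosolic ribosome joins a small subunit, which reads the messenger RNA, to a large subunit, which forms the peptide bond. Most ribosomal proteins are present in about equal amounts. The messenger RNAs of these proteins in mammals typically begin with a cytosine followed by a run of pyrimidines, the terminal oligopyrimidine (TOP) element. Through this element their translation responds to the mTORC1 kinase and the RNA-binding protein LARP1. In neurons ribosomes are found in cell bodies and dendrites, where local protein synthesis takes part in synaptic plasticity. RNA counts report on message levels and not on translation or ribosome number.

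Start-site sequences are shown for 9 members because the TOP element is what this class of messages is known for. RefSeq start sites on GRCm38.p6 were matched for 64 of the 88 members. Each sequence below runs from 20 bases before the annotated start base through 30 bases from it, 5′ to 3′ on the gene's strand. Capitals mark a C followed by at least 5 bases that are C or T, where one begins within 5 bases of the start. Rps6, Rps18 and Rps10 of the small subunit and Rpl35, Rpl38 and Rpl27a of the large subunit were picked because they carry it, and Rpl37a, Rpl22l1 and Rps4x are members to which the expression values below return.
Rps6 (chr4:86857338-86857387, minus strand): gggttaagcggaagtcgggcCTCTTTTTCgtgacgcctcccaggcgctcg
Rps18 (chr17:33955636-33955685, minus strand): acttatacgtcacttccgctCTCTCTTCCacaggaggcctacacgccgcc
Rps10 (chr17:27635215-27635264, minus strand): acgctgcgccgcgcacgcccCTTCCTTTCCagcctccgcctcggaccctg
Rpl35 (chr2:39005102-39005151, minus strand): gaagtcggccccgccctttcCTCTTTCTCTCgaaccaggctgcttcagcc
Rpl38 (chr11:114668560-114668609, plus strand): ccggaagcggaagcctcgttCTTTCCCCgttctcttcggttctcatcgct
Rpl27a (chr7:109519175-109519224, plus strand): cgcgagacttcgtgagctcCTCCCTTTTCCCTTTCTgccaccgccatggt
Rpl22l1 (chr3:28805488-28805537, plus strand): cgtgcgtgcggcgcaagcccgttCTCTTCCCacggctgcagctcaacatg
Rpl37a (chr1:72711240-72711289, plus strand): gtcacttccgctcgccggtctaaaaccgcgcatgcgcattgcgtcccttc
Rps4x (chrX:102189362-102189411, minus strand): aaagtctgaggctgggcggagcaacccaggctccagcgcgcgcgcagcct

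The element began exactly at the annotated start base in 11 of 64 members (17.2%), against 1.72% of 27025 genes with a start-site window. In Rps6, Rps18, Rps10, Rpl35 and Rpl38 the capitals cover 8 to 11 bases from that base on, and in Rpl27a 17 bases from 1 base before it. In some of them, as in Rps18 and Rpl35, C or T also stand directly before the capitals. Within 5 bases of the start it was found in 26 of 64 members (40.6%), a minority, against 10.2% of all genes. The capitals of Rpl22l1 cover 8 bases from 3 bases after the start, and no such stretch begins within 5 bases in Rpl37a or Rps4x. A single annotated base can miss the start that is used, so no match says only that these letters are not there. In the 300-base windows, searched on both strands, CCGGAA, the core bound by ETS-family factors including GABP, was found in 32 of 64 members (50%) against 15.2% of all genes. AANATGGC, a core of the YY1 motif, was found in 12 of 64 (18.8%) against 6.23%, and TATAAA in 6 of 64 (9.38%) against 14.2%. A match is a description and not a binding site.

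The libraries held 32049770 to 47486547 counts, of which the 88 members took 1.14% to 1.61%. Rows named as ribosomal protein pseudogenes, 276 in all, took another 0.185% to 0.251%. Neuronal markers (Rbfox3, Snap25, Syt1, Tubb3) were present in every group, at a summed 3407 to 5117 CPM. Choroid plexus markers were uneven, from a summed 159 CPM to 7685 CPM per library, with all 7 detected. Counts on 823 antisense genes, as a percent of those of their hosts, were 0.335 to 0.392 in the ventral nicotine-sired males and 0.197 to 0.283 in the other ventral libraries. In the dorsal libraries they were 0.211 to 0.374 in nicotine-sired and 0.188 to 0.357 in saline-sired males, and 0.232 to 0.260 and 0.214 to 0.220 in the females. In bulk tissue, fewer cells of a type and less RNA per cell cannot be told apart. Many ribosomal protein messages have near-identical pseudogene copies: 81 of 88 members share at least 1 stretch of 100 bases with another annotated gene, and 41 share more than 50% of such stretches. How reads that match several places were counted is not given in the sources used here, so levels of strongly shared genes are uncertain.

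Levels were compared between genes only per length, as mean CPM per kilobase of the principal transcript over the 24 libraries. The 77 core subunit genes lay between 27.1 and 715 on this scale, with a median of 197, and 70 of them were within 2-fold of that median. Highest were Rplp1, a protein of the acidic stalk that recruits translation factors, at 715 CPM per kb, Rps29 at 562, Rps15 at 537, Rpl41, the shortest ribosomal protein, at 469, and Rpl19 at 393. Lowest among the core genes was Rps20 at 27.1, whose annotated principal transcript is long. Per kilobase of coding sequence Rps20 stood at 282 CPM, near the core median of 324. Rplp0, the stalk base, stood at 151 CPM per kb and Rplp2, the partner of Rplp1, at 116. Rpsa, which is also known as a laminin receptor precursor, stood at 185, and Rps6, whose protein is phosphorylated downstream of mTORC1, at 286.

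**Figure D1:**
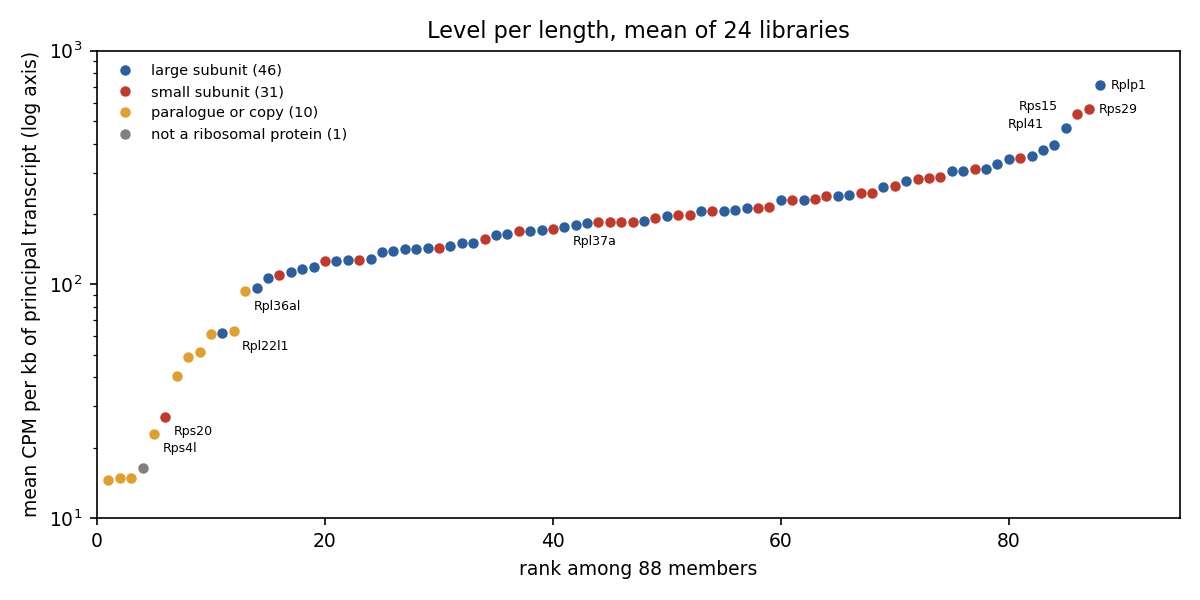
Mean CPM per kilobase of principal transcript (log axis) of the 88 members in rank order, 1 point per gene over 24 libraries, coloured by class. Most core subunit genes lie within 2-fold of their median of 197, and the paralogues and copies lie between 14.6 and 93.2.

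The 10 paralogues and copies were lower, at 14.6 to 93.2 CPM per kb. Rpl36al reached 66.1% of the level per length of its X-linked relative Rpl36a. Rpl22l1, a paralogue of Rpl22, stood at 37.2% of its parent and varied from 27.7% to 44.2% over the libraries. Rps4l, an autosomal relative of X-linked Rps4x annotated as a transcribed processed pseudogene (chr6:148354656-148355598, plus strand), stood at 9.99% of Rps4x, with a range of 7.38% to 12.3%. Rpl7l1 stood at 8.26% of Rpl7, Rps27l at 4.27% and Rps27rt at 4.19% of Rps27. Rps12l1 (36.4% of Rps12), Rpl6l (30% of Rpl6), Rpl37rt (25% of Rpl37) and Rps3a2 (15.8% of Rps3a1) are retrocopies, and every 100-base stretch of Rps12l1 occurs in another gene. Of Rps4l, only 1.70% of such stretches do.

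Across libraries the members went up and down together. Each member's log2 CPM was taken as its deviation from its own mean over the 24 libraries, and the median deviation of the 88 described each library. The lowest library was ventral A of the nicotine-sired males, with a median of -0.32 and 1 of 88 members above its own mean. The dorsal library of the same animal stood at -0.02. The highest were ventral C of the saline-sired females, at 0.23 with 87 of 88 members above their own mean, and dorsal C of the nicotine-sired males, at 0.22 with 86 of 88. The large-subunit and small-subunit medians of a library never differed by more than 0.0462. The same libraries stood out in 168 other short coding genes (up to 1000 bases, at least 50 CPM). Their median was -0.23 in the lowest library, 0.20 in the highest and 0.09 in dorsal C of the nicotine-sired males. They are not matched to the members in length: some members are longer, such as Rps20 at 3706 bases and Rpl5 at 2045. The part of transcript length in this common shift was not tested.

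**Figure D2:**
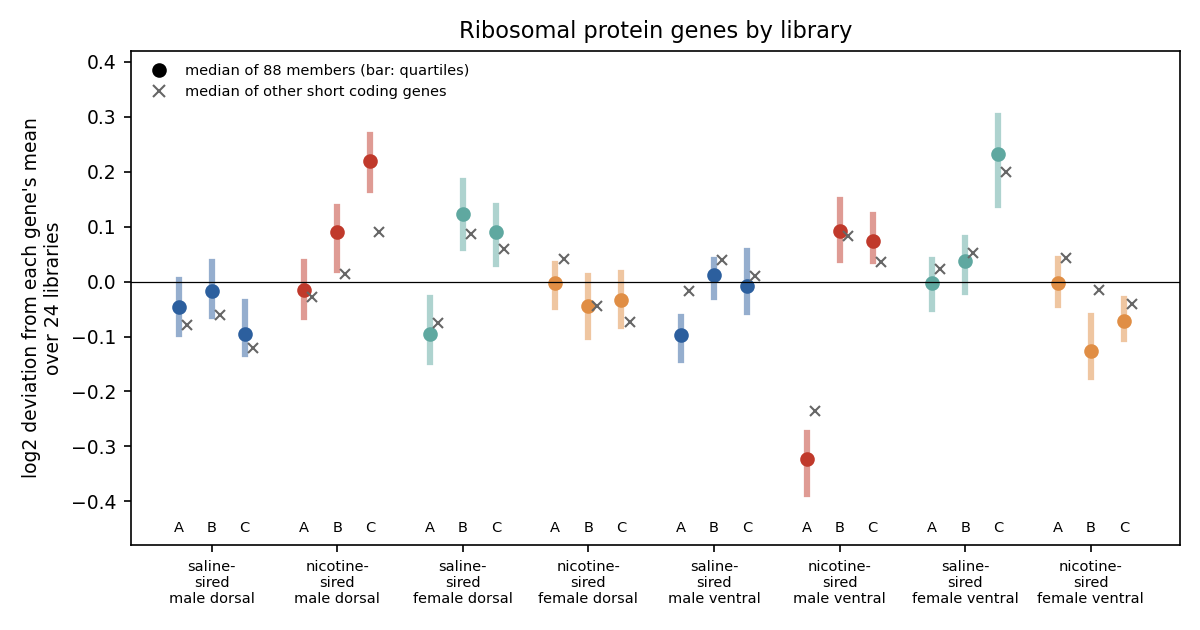
Median log2 deviation of the 88 members from their own means in each of the 24 libraries (circles, with bars from lower to upper quartile), by group and animal letter, and the median of 168 other short coding genes (crosses). Ventral A of the nicotine-sired males is the lowest at -0.32 and ventral C of the saline-sired females the highest at 0.23.

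After the library median was subtracted, the 77 core genes kept a median SD of 0.0726 on the log2 scale, against 0.134 before. Of them, 65 (84.4%) had a remaining SD under 0.1. Among 3172 other genes in the same range of levels the median SD was 0.13 before and 0.18 after the same subtraction, and 7.35% were under 0.1. The subtracted median was computed from the members themselves, which lowers their own remainder. Fau and Rack1, which had no part in it, kept SDs of 0.0654 and 0.0515. The closest followers were Rpl26 (0.0327), Rps23 (0.0352) and Rpl8 (0.0366). The 24 core genes with a TOP element within 5 bases of the annotated start had a median of 0.0756 and the 33 without one there 0.0672. Since an annotated base can miss the start that is used, this split cannot tell whether the element matters.

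A few members, picked out after their values were seen, did not follow. Rps15a and Rpl15 hardly moved with the libraries: Rps15a stayed between 111 and 128 CPM and Rpl15 between 168 and 198 CPM, and both had a larger SD after the subtraction than before. Rpl37a, a zinc-binding protein of the large subunit, had the largest remaining SD, 0.343, and ranged from 68.2 to 158 CPM. Next came Rps27rt (0.285), Rps4l (0.216) and Rpl22l1 (0.167). Rps27rt is the member nearest the level limit, at 3.25 to 8.15 CPM, and 89.5% of its stretches occur in other genes.

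**Figure D3:**
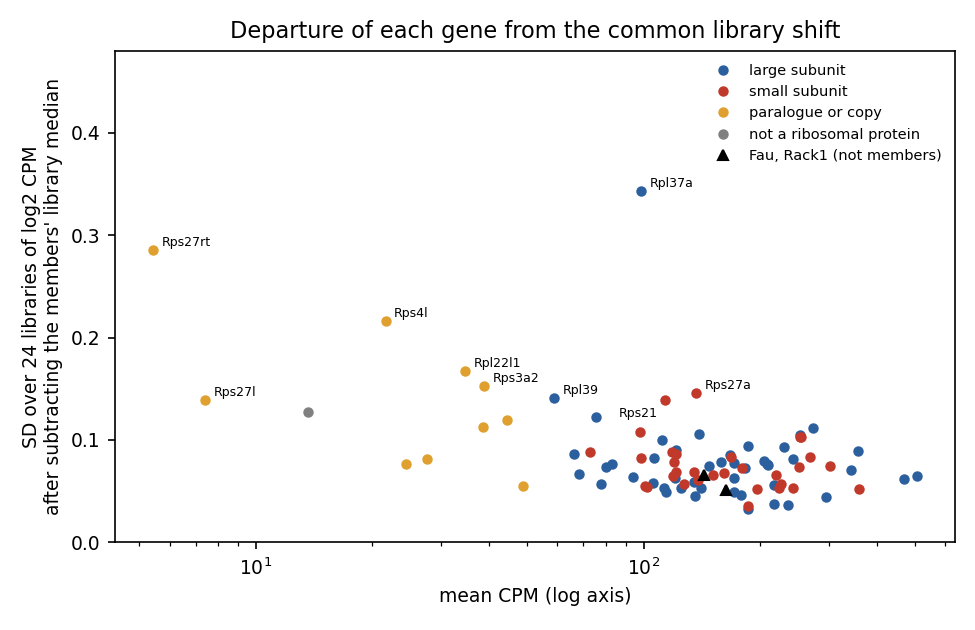
SD over 24 libraries of log2 CPM after subtracting the members' library median, against mean CPM (log axis), 1 point per gene; triangles are Fau and Rack1. Most core genes lie under 0.1, and Rpl37a stands at 0.343 at a mean of 98.5 CPM.

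In the dorsal hippocampus of males no member passed the test of nicotine-sired against saline-sired animals, and most had small positive values. The comparison asks whether chronic nicotine in the sire is followed by altered expression in offspring hippocampus. With edgeR's quasi-likelihood test and Benjamini-Hochberg adjustment over all 19130 dorsal genes, 0 of 88 members were called at an adjusted p under 0.05, where 1.78% of all genes were. DESeq2 called 2, Rpl37 and Rps4l. The median log2 fold change was 0.14, with 85 of 88 members positive, against -0.00064 over all genes. At an unadjusted p under 0.05, 27 members were higher and 0 lower, where 8.06% and 9.52% of all genes were. In 25 members (28.4%) all nicotine-sired males lay above all saline-sired males, where 12.5% of all genes did so. The 168 other short coding genes had a median of 0.12. Leaving out 1 animal gave members' medians of 0.09 (without nicotine-sired male C) to 0.20 (without nicotine-sired male A). Pyramidal cell markers summed to 3791 to 4527 CPM in nicotine-sired and 3483 to 3771 CPM in saline-sired males, and endothelial markers to 103 to 110 CPM and 114 to 128 CPM, with all markers of both lists detected. Their part in the members' values was not tested.

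Rpl37, a zinc-binding protein of the large subunit, had the smallest p in this comparison. It measured 121, 129 and 120 CPM in saline-sired males A, B and C and 138, 149 and 163 CPM in nicotine-sired males. The groups did not overlap, and the log2 fold change was 0.28 (SE 0.076, edgeR adjusted p = 0.0857). Rps4l followed, with 15.8, 20.3 and 18.6 CPM in the saline-sired males and 21.9, 22.8 and 25.7 CPM in the nicotine-sired males. These groups did not overlap either, and the log2 fold change was 0.36 (SE 0.102, edgeR adjusted p = 0.0976). The others of the 5 smallest p-values, Rpl29, Rps28 and Rpl22, had log2 fold changes of 0.30, 0.31 and 0.21 and did not pass. Rplp1 had 0.25, Rpsa 0.20 and Rps6 0.11, none passing.

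In dorsal females again no member passed, and most values were negative. edgeR called 0 of 88, where 0.0314% of all genes were called, and DESeq2 called 0. The members' median log2 fold change was -0.06, with 67 of 88 members negative, against 0.0086 over all genes. It was -0.04 without saline-sired female B and -0.13 without saline-sired female A. By unadjusted p under 0.05, 12 members were lower and 1 higher, where 6.12% and 7.2% of all genes were. All nicotine-sired females lay below all saline-sired females in 13 members (14.8%), where 9.17% of all genes did so. Rps2, of the messenger entry side of the small subunit, measured 256, 309 and 304 CPM in the saline group and 222, 239 and 247 CPM in nicotine-sired females. These did not overlap, and the log2 fold change was -0.29 (SE 0.0851, edgeR adjusted p = 0.218). Blood markers summed to 378 to 615 CPM in nicotine-sired and 216 to 321 CPM in saline-sired dorsal females, and endothelial markers to 127 to 168 CPM and 103 to 123 CPM. The part of these markers was not tested. Averaged over the sexes, edgeR and DESeq2 each called 0 of 88 dorsal members, where edgeR called 0.0784% of all genes. Without adjustment 7 members (7.95%) passed, against 10.8% of all genes, and the median was 0.05 (0.0097 without saline-sired female A).

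The difference between the sexes in the dorsal treatment comparison was tested as an interaction. Rps4l passed: its treatment difference in females minus that in males was -0.61 on the log2 scale (SE 0.145, 95% interval -0.95 to -0.28, edgeR adjusted p = 0.0492). It was the 1 member of 88 called, and it was lower. Of all genes 0.847% were called lower and 2.24% in either direction. In dorsal females Rps4l measured 18.4, 22.4 and 19.8 CPM in the saline group and 17.4, 16.3 and 17.0 CPM in nicotine-sired animals, so that all nicotine-sired females lay below and all nicotine-sired males above their saline-sired controls. The group means were 18.2 ± 2.29 CPM (SD, n = 3) in the controls and 23.5 ± 1.96 CPM in nicotine-sired males, and 20.2 ± 2.01 CPM and 16.9 ± 0.533 CPM in females. The call is at the edge of the threshold: leaving out 1 animal gave adjusted p-values of 0.0347 to 0.139, and it passed only without nicotine-sired female A. It also did not pass with DESeq2-style size factors (adjusted p = 0.0504), with the antisense percent as a covariate (adjusted p = 0.0635) or with the choroid plexus markers' level as one (-0.52, adjusted p = 0.0626). Those markers summed to 201 to 2836 CPM in dorsal nicotine-sired and 360 to 7685 CPM in dorsal saline-sired males, and to 327 to 7348 CPM and 197 to 1495 CPM in the females.

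Other members shared the sign of that interaction without passing in edgeR. In 25 members it was lower at an unadjusted p under 0.05, where 9.24% of all genes were. In all, 86 of 88 had a negative value, with a median of -0.20 against 0.018 over all genes, and the 168 other short coding genes had a median of -0.15. DESeq2 called 7 members lower, among them Rpl3, Rpl37, Rps2, Rps4l and Rps4x. Rps4x, the X-linked relative of Rps4l, had -0.30 (SE 0.0941, edgeR adjusted p = 0.106). Rpl3, which lies at the peptidyl transferase centre and has the highest mean CPM of all members, had -0.36 (edgeR adjusted p = 0.0821). In the ventral hippocampus Rps4l had -0.26 for the same interaction (edgeR adjusted p = 0.440).

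In ventral females no member passed, and nearly all values were negative. edgeR called 0 of 88, where 0.0312% of all 19224 ventral genes were called, and DESeq2 called 0. The median log2 fold change was -0.15, with 85 of 88 members negative, against 0.00031 over all genes. Without adjustment 12 members were lower and 0 higher, where 6.65% and 7.23% of all genes were. In 36 members (40.9%) all nicotine-sired females lay below all saline-sired females, where 10.2% of all genes did so. Rps21 had the smallest p, with 124, 124 and 164 CPM in the saline group and 111, 91.8 and 94.8 CPM in nicotine-sired females. The groups did not overlap, and the log2 fold change was -0.47 (SE 0.148, edgeR adjusted p = 0.212). Rpl36, Rplp2, Rpl39 and Rpl13 followed at -0.37, -0.36, -0.37 and -0.32, none passing. The 168 other short coding genes had a median of -0.09, and without saline-sired female C, the highest library, the members' median was -0.08. Several marker lists, each with all its genes detected, also did not overlap between these groups. Blood markers summed to 414 to 490 CPM in nicotine-sired and 287 to 373 CPM in saline-sired females, endothelial markers to 136 to 143 CPM and 117 to 126 CPM, and neuronal markers to 3956 to 4582 CPM and 3410 to 3816 CPM. The mean log2 CPM of the choroid plexus markers was 6.07 and 6.30 in nicotine-sired females B and C, against 2.87 in A and 2.44 to 3.20 in saline-sired females. The members' median deviations were -0.13 and -0.07 in B and C and -0.0021 in A. Dorsal libraries with high choroid plexus levels differed in sign: the deviation was -0.05 in saline-sired male A (level 7.54). In nicotine-sired male B (level 5.73) it was 0.09. The part of these markers was not tested.

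In ventral males no common direction was seen with all animals. edgeR called 0 of 88, where 3.21% of all genes were called, and DESeq2 called 0. Without adjustment 1 member was lower and 0 higher, where 7.27% of all genes were lower. The median log2 fold change was -0.0071, with 39 positive and 49 negative. This value rests on nicotine-sired male A, the lowest library: without it the median was 0.12 and Rps24 was called. In 0 members did all nicotine-sired males lie above all saline-sired males, where 11.5% of all genes did so, and in 2, Rpl7l1 and Rps19bp1, they lay below, where 10.9% did. Averaged over the sexes, edgeR and DESeq2 each called 0 of 88 ventral members, where edgeR called 1.75% of all genes. By unadjusted p, 7 members (7.95%) were lower, where 7.49% of all genes were, and the median of the members was -0.08 (-0.01 without nicotine-sired male A). Blood markers summed to 405 to 444 CPM in nicotine-sired and 290 to 353 CPM in saline-sired ventral males. Choroid plexus markers summed to 256.5 to 298.5 CPM and 159.1 to 239.4 CPM. Ventricle lining markers (Foxj1, Ccdc153, Tmem212) went the other way, at 4.71 to 8.76 CPM and 10.1 to 12.9 CPM. The part of these markers was not tested. For the ventral interaction edgeR and DESeq2 called 0 of 88, where edgeR called 1.07% of all genes. The unadjusted count was 1 member, lower, where 7.53% of all genes were lower, and the median was -0.16. It moved to -0.07 when saline-sired female C was left out. Without nicotine-sired male A it was -0.28 and 3 members, Rpl21, Rpl37 and Rps15, were called lower.

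**Figure D4:**
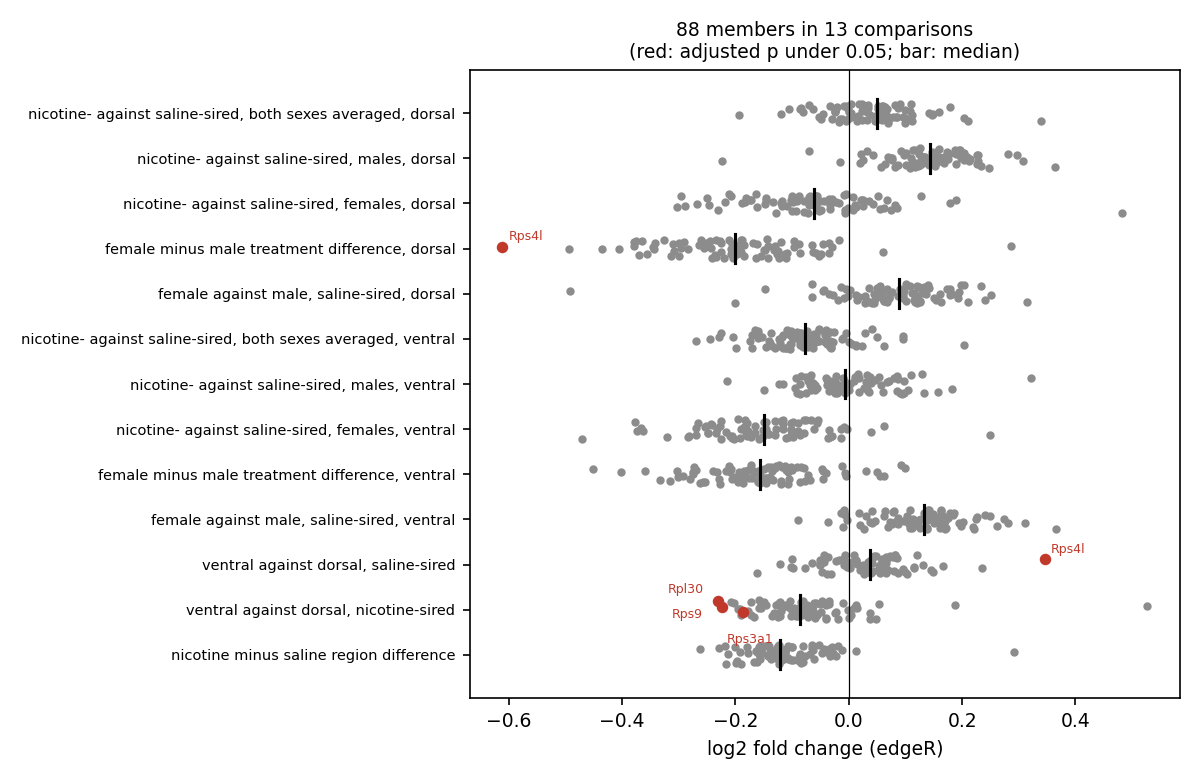
Log2 fold changes of the 88 members in the 13 comparisons (points; red, adjusted p under 0.05; black bar, median of the members). The members' medians reach -0.20 while single genes rarely pass, and Rps4l stands apart in the dorsal interaction and in the saline-sired region comparison.

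Saline-sired females and males differed little gene by gene, but most members had small positive values, higher in females. In the dorsal region edgeR called 0 of 88, where 1.91% of all genes were called, and DESeq2 called 1, Rps2. Unadjusted, 8 members were higher and 1 lower in females, where 8.73% and 10% of all genes were. In all, 74 of 88 members were positive, where 48.5% of all genes were, and the members' median was 0.09, against -0.0091 over all genes. It was 0.06 without saline-sired female B and 0.15 without saline-sired female A, and the 168 other short coding genes had a median of 0.105. Rps2 was higher in all 3 females, with a log2 fold change of 0.31 (SE 0.0851, edgeR adjusted p = 0.0826). It was called by edgeR without saline-sired female A or without nicotine-sired female A. In the ventral region edgeR and DESeq2 called 0 of 88, where edgeR called 2.31% of all genes. Unadjusted, 5 members were higher and 0 lower, where 9.56% and 7.71% of all genes were. In all, 80 of 88 members were positive, where 52% of all genes were. The median was 0.13 (0.05 without saline-sired female C), with 0.09 in the other short coding genes and 0.01 over all genes. In 17 members (19.3%) all females lay above all males, where 13.6% of all genes did so, against 8 members (9.09%) and 12.2% of all genes in the dorsal region. Blood markers summed to 216 to 321 CPM in dorsal females and 337 to 446 CPM in dorsal males. Ventricle lining markers summed to 7.01 to 10.2 CPM and 15.8 to 43.15 CPM, and microglia markers to 180.4 to 182.7 CPM and 163.5 to 178.9 CPM. Ventrally, neuronal markers summed to 3410 to 3816 CPM in females and 3975 to 4295 CPM in males. The part of these markers was not tested. Of the X-linked members, Rps4x differed by 0.08 dorsally and 0.09 ventrally, Rpl10 by -0.04 and -0.0083, Rpl36a by 0.05 and 0.13, and Rpl39 by 0.20 and 0.11, none passing.

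Between regions, Rps4l was the member that changed in saline-sired animals. It was 1 of 88 called and it was higher ventrally, where 6.78% of all 19849 genes were called higher and 14.5% in either direction. In saline-sired males A, B and C it measured 15.8, 20.3 and 18.6 CPM dorsally and 23.2, 26.8 and 21.3 CPM ventrally. In saline-sired females it measured 18.4, 22.4 and 19.8 CPM dorsally and 24.5, 26.3 and 24.2 CPM ventrally. The ventral library was higher in 6 of 6 animals, and the log2 fold change was 0.35 (SE 0.0744, edgeR adjusted p = 0.00388). Leaving out each animal kept the call, with adjusted p-values of 0.00349 to 0.0320. Rps4x, at -0.0061 (edgeR adjusted p = 0.957), did not pass.

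With the animal as a block, since both regions came from the same mice, 3 of 88 members were called higher in saline-sired animals and 0 lower, where 10.8% and 11.5% of all genes were. They were Rps4l (0.35, edgeR adjusted p = 0.00200), Rpl41 (0.17, edgeR adjusted p = 0.0213) and Rps15 (0.14, edgeR adjusted p = 0.0455). Rpl41 and Rps15 were each higher ventrally in 6 of 6 animals. The blocked count was 1 to 6 when 1 animal was left out. It was 6 without nicotine-sired male A or saline-sired female B, and 1 without saline-sired male B, saline-sired male C or saline-sired female A.

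In nicotine-sired animals 3 of 88 members, Rpl30, Rps3a1 and Rps9, were called lower ventrally, a smaller share than the 8.15% of all genes that edgeR called lower (16.9% in either direction). The median log2 fold change of the members was -0.09 against -0.0056 over all genes, and -0.05 without nicotine-sired male A. Rpl30 measured 131, 138 and 148 CPM dorsally and 93.7, 125 and 126 CPM ventrally in nicotine-sired males, and 121, 127 and 120 CPM dorsally and 111, 105 and 108 CPM ventrally in nicotine-sired females. It was lower ventrally in 6 of 6 animals, with a log2 fold change of -0.23 (SE 0.0612, edgeR adjusted p = 0.0111). Rps3a1 fell by 0.19 on the log2 scale (edgeR adjusted p = 0.0235) and Rps9, which acts in decoding accuracy on the small subunit, fell by 0.22 (edgeR adjusted p = 0.0430), each in 6 of 6 animals. In saline-sired animals Rpl30, Rps3a1 and Rps9 were each lower ventrally in 5 of 6. With the animal as a block their saline-sired values were -0.12, -0.10 and -0.07, none passing (edgeR adjusted p = 0.085, 0.119 and 0.408). The count called in nicotine-sired animals depended on single animals: it was 0 without nicotine-sired female B, 1 without nicotine-sired female C (Rpl30), and 5 without nicotine-sired male B. The Rps9 call ended in 8 of 12 refits that left out 1 animal, among them refits without a saline-sired animal. Its edgeR adjusted p ranged from 0.0328 to 0.144 over the 12. The Rps3a1 call ended in 2 refits and the Rpl30 call in 1. Rps9 did not pass with the antisense percent as a covariate (-0.20, edgeR adjusted p = 0.0860).

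With the animal as a block the count rose to 18 lower and 1 higher, where 11.5% and 11.9% of all genes were. Among the 18 were Rpl30 (-0.24, edgeR adjusted p = 0.00286), Rplp0 (-0.20, 0.0135), Rps6 (-0.14, 0.0178), Rpsa (-0.16, 0.0198) and Rplp1 (-0.20, 0.0274), the bracketed second value being the adjusted p. The 1 higher was Rps4l (0.18, edgeR adjusted p = 0.0475), higher ventrally in 5 of 6 animals. This count varied with single animals: it was 3 without nicotine-sired male A, whose members' median was 0.31 lower ventrally than dorsally, 3 without female C, 6 without female B and 32 without male B. The test of the difference between nicotine-sired and saline-sired animals in the region effect called 0 of 88 and 0% of all genes, without and with the block, and DESeq2 called 0. Unadjusted p-values differed between the fits: without the block 0 members were under 0.05, where 4.76% of all genes were, and with it 23 members were, all lower, where 4.58% of all genes were lower. The members' median was -0.12 without and -0.13 with the block, and that of the 168 other short coding genes was -0.10 without it. The smallest adjusted p of a member was 0.881, and 0.496 with the block. Rps4l had -0.16 there (SE 0.105), so its regional step was not shown to differ by sire treatment.

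**Figure D5:**
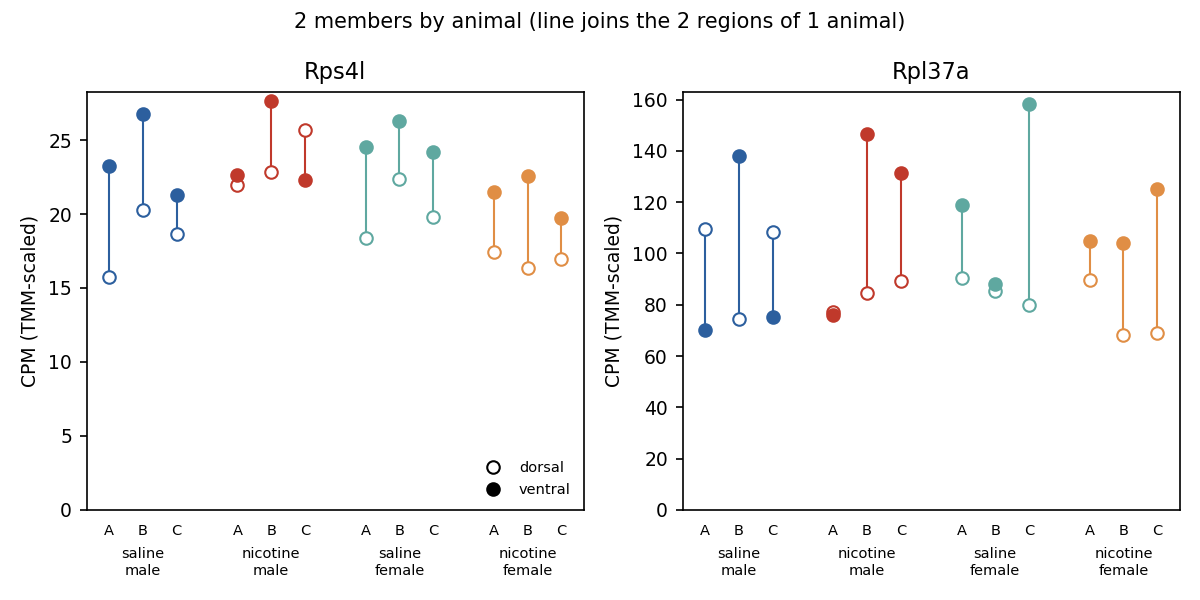
CPM of Rps4l and Rpl37a in each of the 12 animals, dorsal (open) joined to ventral (filled), by sire treatment, sex and animal letter. Rps4l is higher ventrally in 11 animals and lower in nicotine-sired male C, while Rpl37a ranges from 68.2 to 158 CPM with wide differences inside groups.

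Rpl37a had a large ventral difference that was uneven between animals. In the nicotine-sired males it measured 77.2, 84.7 and 89.2 CPM dorsally and 75.9, 147 and 132 CPM ventrally. In the nicotine-sired females it measured 89.6, 68.2 and 69.1 CPM dorsally and 105, 104 and 125 CPM ventrally. It was higher ventrally in 5 of 6 nicotine-sired animals, and the log2 fold change was 0.53 (SE 0.188, edgeR adjusted p = 0.0631; 0.50 and adjusted p = 0.142 with the block). DESeq2 called it, and so did edgeR without nicotine-sired male A or without saline-sired male B. In saline-sired males it measured 110, 74.5 and 108 CPM dorsally and 70.2, 138 and 75.3 CPM ventrally, with 4 of 6 saline-sired animals higher ventrally. Of its 100-base stretches 21.4% occur in other genes.

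Other parts of the ribosome pathway gave the setting. Fau and Rack1 had no call in any comparison. Of 78 mitochondrial ribosomal proteins, which build the separate ribosome of mitochondria, 0 were called for sire treatment in either region. Between regions, 4 of 78 were higher ventrally, where 6.78% of all genes were, and 0 lower in saline-sired animals (among them Mrps12, 0.24, edgeR adjusted p = 0.00635), and 0 higher and 5 of 78 lower, where 8.15% of all genes were, in nicotine-sired animals (among them Mrps9, -0.19, edgeR adjusted p = 0.0266). Of 24 other TOP messages, 0 were called for sire treatment. Tpt1, a translationally controlled protein, was lower ventrally in both sire groups (-0.19, edgeR adjusted p = 0.0393, and -0.30, edgeR adjusted p = 0.00145). Vim was also called lower in both (-0.35 in saline-sired and -0.41 in nicotine-sired animals). Eif4b and Eif3m were called lower ventrally in saline-sired animals (-0.14 each), where 14.5% of all genes were called in either direction. In nicotine-sired animals Snhg8 was called lower (-0.34) and Nap1l1 higher (0.22), where 16.9% of all genes were called.

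Among 44 tested ribosome biogenesis genes, Mdn1, an ATPase that remodels large-subunit precursors, was lower in dorsal nicotine-sired males (-0.51, SE 0.0766, edgeR adjusted p = 0.00623), and 0 were higher. Of all genes 1.78% were called in either direction in dorsal males. Mdn1 was called higher in the dorsal interaction (0.61, edgeR adjusted p = 0.0185) and Nhp2, of the pseudouridylation particles, lower (-0.55, edgeR adjusted p = 0.0468). There, 2.24% of all genes were called in either direction. Of 31 mTORC1 pathway genes and TOP regulators, Ddit4, an inhibitor of mTORC1 induced by stress, was lower in ventral nicotine-sired animals averaged over the sexes (-0.44, edgeR adjusted p = 0.00344), with 0 higher. In that comparison 1.75% of all genes were called in either direction. Ddit4 and Sesn1, another mTORC1 inhibitor, were lower in ventral males (-0.38, edgeR adjusted p = 0.0292, and -0.30, edgeR adjusted p = 0.0251). In ventral males 3.21% of all genes were called. Of 28 initiation factors, Eif5b (0.42, edgeR adjusted p = 0.00933) and Eif4g3 (0.26, edgeR adjusted p = 0.0189) were higher in ventral nicotine-sired animals averaged over the sexes and 0 lower. The share of all genes called there was again 1.75%. Eif2s3x, which escapes X inactivation, was higher in females in both regions (0.56 each, edgeR adjusted p = 0.000182 dorsally and 0.000132 ventrally), and Eif5b was lower in females ventrally (-0.49, edgeR adjusted p = 0.0226). Between the sexes 1.91% of all genes were called dorsally and 2.31% ventrally. For RNA polymerase I (19 genes) and free ribosomal protein sensing (6 genes), 0 were called in the treatment and sex comparisons. Between regions, where 16.9% of all genes were called in nicotine-sired animals, 3 of the 31 mTORC1 genes were higher ventrally there and 1 lower. The higher ones were Rragb, a Rag GTPase that recruits mTORC1 (0.35, edgeR adjusted p = 0.000526), Sesn3, an inhibitor related to Sesn1 (0.41, edgeR adjusted p = 0.00629), and Larp1 (0.19, edgeR adjusted p = 0.0123), and the lower one was Sesn1 (-0.31, edgeR adjusted p = 0.00231). In saline-sired animals, where 14.5% of all genes were called, 0 were higher and 4 lower: Sesn1 (-0.27), Rragd (-0.31), Tia1 (-0.23) and Larp4 (-0.23), at edgeR adjusted p-values of 0.00899 to 0.0455. Genes of the other lists were also called (ventral against dorsal), beside the same shares of all genes. In nicotine-sired animals Cd3eap (0.17) and Ubtf (-0.23) of RNA polymerase I, Tsr2 (0.17) of sensing, Nob1 (-0.21), Bop1 (-0.18) and Eif4a1 (-0.19) were called. In saline-sired animals these were Tsr2 (0.15), Mdm2 (-0.19) and Heatr3 (-0.20) of sensing, Grwd1 (0.21), Nop2 (0.20), Ddx21 (-0.20), Heatr1 (-0.20) and Eif4g2 (-0.12).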

How the data were processed

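Total RNA was made into stranded mRNA libraries and sequenced as single-end reads on a HiSeq2500, per the labels' protocols. TopHat2 2.1.0, Cuffdiff 2.2.1.3, Cufflinks and the build GRCm38 (mm10) appear, with no role, in the submitters' processing notes. The authors deposited raw counts per gene. For the counter, strand setting and multi-mapped reads, details were not given in the sources used here. Members and gene lists were chosen with earlier results of these data known. Named members are those past the threshold, the 5 smallest p-values where fewer than 5 pass, the extremes of level per length, paralogues with parents, X-linked members and a few role examples; exceptions are said beside their values.

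edgeR 4.0.16 in R 4.3.3, with limma 3.58.1, was run on the counts (TMM, filterByExpr by group, robust two-sided quasi-likelihood F test) in each region and in 1 joint fit for regions. Benjamini-Hochberg adjustment ran over all genes, at a threshold of 0.05, and DESeq2 1.42.0 was an alternative. CPM are TMM-scaled, except for the level limit of 5 and the levels beside it. The tests were tried on simulated data. Lengths came from GENCODE M21 (GRCm38), which held 51719 of the gene identifiers, and start sites from RefSeq (GRCm38.p6). Dorsal and ventral libraries with 1 title prefix come from 1 animal and pair. The median r of their deviations from the group means was 0.154 (lowest -0.0755, highest 0.528), and 9 of 12 animals were over 0.1.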

Additional observations from a re-analysis of the deposited data

Results flagged for a closer look

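The effect of sire treatment on Rps4l in the dorsal hippocampus differed between the sexes in a test of the difference itself: -0.61 on the log2 scale (SE 0.145, edgeR adjusted p = 0.0492), females minus males. All 3 nicotine-sired males lay above and all 3 nicotine-sired females below their saline-sired controls. Among the 88 members it was the only one that passed, and leaving out 1 of 12 animals ended the call in 11 refits.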

How the results depend on the processing

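Of 101 combinations of a comparison with a setting that used all libraries, 89 gave a count of members called within 1.5 times the reported one and 12 did not. With DESeq2 the counts were 2 (reported 0) in dorsal males, 7 (reported 1) in the dorsal interaction, 1 (reported 0) for sex in the dorsal region and 6 (reported 3) between regions in nicotine-sired animals. In the dorsal interaction the count was 0 with DESeq2-style size factors, with the letter as a replicate block, and when a covariate held the antisense ratio or the choroid plexus level, and it was 2 with the spread of all 24 libraries. The choroid plexus covariate gave 1 in dorsal males. Both covariates, and leaving out animals in the fits with the animal as a block, were chosen after seeing the data. The block by animal gave 3 (reported 1) between regions in saline-sired and 19 (reported 3) in nicotine-sired animals, and the replicate block changed no other count. The letters A, B and C are shared only as letters across groups. The cause of these changes was not tested.

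Leaving out 1 animal gave counts of 0 to 1 in the dorsal interaction, 0 to 1 for sex in the dorsal region, 0 to 1 in ventral males, 0 to 3 in the ventral interaction and 0 to 5 between regions in nicotine-sired animals. With the animal as a block it gave 1 to 6 between regions in saline-sired and 3 to 32 in nicotine-sired animals. In the other comparisons the counts were those reported. In the fits without the animal as a block the members' median SE was 0.0612 to 0.152. Differences of about 0.1 on the log2 scale were within 2 such standard errors, so single genes shifted by that much were not detectable at this spread. With the block some standard errors were smaller: Rpl28 was called between regions in nicotine-sired animals at -0.13 (SE 0.0362, edgeR adjusted p = 0.0201).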
